A study of Mus musculus with 9 samples.

Results

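The genes described here are 48 genes of the lysosome and of the TFEB network, taken as a list by gene symbol out of the 50686 genes of the count table. The list holds 3 transcription factors, 6 lysosomal membrane proteins, 10 cathepsins, 11 glycosidases and sulfatases, 8 proteins for lipid handling and other work in the lysosomal lumen, 5 subunits of the proton pump, and 5 autophagy genes. All 48 were in the table, and 45 were kept by an expression filter that left 15531 genes to test. The other 3 (Ctsc, Ctsf, and Ctss) are cathepsins that had from 0 to 7 counts in each library.

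RNA-Seq was performed on 3 groups of mouse cells with n = 3 libraries each. The control group was MC3T3-E1, a cultured osteoblast line, without SB216763. The SB216763 group was the same line after 10 μM of SB216763, an ATP-competitive inhibitor of both GSK3 kinases, for 14 days. The reference group was mouse pulmonary endothelial cells (ECs), which the study isolated by FACS (sorting of labeled cells). The osteoblasts are a cultured line, so in comparisons with ECs cell type and cell source cannot be told apart. No genetic change was named for any group, and the culture time of the control cells, the vehicle, and the strain, age and number of the mice behind the ECs were not given in the sources used here. The osteoblasts come from 1 established line, and nothing in the labels says whether the libraries of a group came from separate cultures or animals, so p-values measure only the spread between these libraries, which may be technical. In bulk RNA of this kind, fewer cells expressing a gene and less RNA per cell cannot be told apart.

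The libraries held between 30990107 and 68946333 counts. CPM is the count of a gene scaled to a common library size, with TMM factors that adjust the size of each library. Scaled by total counts alone, without these factors, 3 counts in a library corresponded to 0.0435 to 0.0968 CPM. The cell labels were checked against marker lists. The sum of 6 osteoblast markers was 20090.0 to 28687 CPM in the control libraries, 2826 to 2975 CPM in the SB216763 libraries, and 28.9 to 38.3 CPM in the ECs. All 6 were lower in treated than in control osteoblasts. The sum of 8 endothelial markers was 6570.0 to 6700.0 CPM in the ECs and 2.45 to 3.44 CPM in both osteoblast groups, and none of the 8 passed the test between treated and control osteoblasts. Treated cells thus differed from controls in the osteoblast markers of these lists and remained near 0 for the endothelial ones.

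Lysosomes break down proteins, glycans, lipids and nucleic acids that reach them by endocytosis and autophagy, in a lumen kept acidic by the vacuolar proton pump (V-ATPase). TFEB, TFE3 and MITF are related transcription factors (the MiT/TFE family) that switch on lysosomal and autophagy genes through short promoter motifs built around the E-box CACGTG, known as CLEAR elements. In fed cells these factors are phosphorylated and held in the cytoplasm, mainly by mTORC1 at the lysosomal surface, and GSK3 has also been described as a kinase that restrains TFEB. Osteoblasts use lysosomes for matrix turnover, and cathepsin K, best known from osteoclasts, is a collagen-degrading member of this set.

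Most lysosomal genes were higher after SB216763. A gene was called at a false discovery rate (FDR, the Benjamini-Hochberg adjusted p of edgeR's quasi-likelihood test over all genes tested) under 0.01. Of the 45 members tested, 43 were higher in treated than in control osteoblasts, 1 was lower (Wipi1), and 1 was not called (Ids), while 32.9% of all genes tested were called higher and 32.0% lower. At least a doubling (a log2 fold change of 1 or more) was reached by 29 members, compared with 11.1% of all genes tested. Among these, Ctsk, Gaa, and Sqstm1 were at the edge, with lowest values of 0.98, 0.99, and 0.97 when each library was left out in turn. The study's stricter cutoff, a log2 fold change of 2 or more at the same FDR, was passed upward by 7 members (Ctsb, Ctsh, Ctsl, Hexa, Neu1, Tpp1, and Atp6v0d2) and downward by 0, where 3.81% of all genes tested passed upward and 5.84% downward. Atp6v0d2 passed the expression filter through the treated libraries alone, so its calls against controls and ECs are a description and lend no support to the counts and medians that include it. The median log2 fold change of the members was 1.14, a median fold of 2.21, and that of all genes tested was 0.01. The 6 osteoblast markers were lower in the same treated libraries, and their part in this result was not tested.

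**Figure D1:**
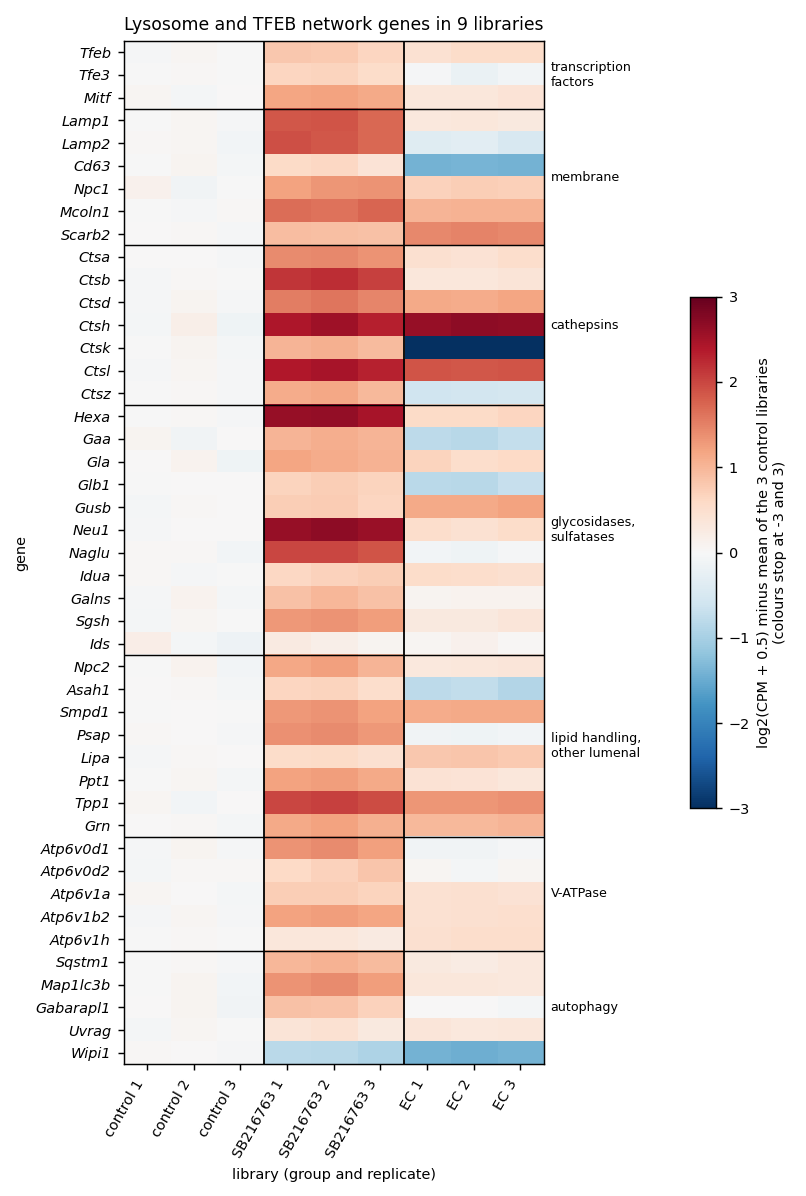
Level of each tested lysosome and TFEB network gene in each of the 9 libraries, as log2(CPM + 0.5) minus the mean of the 3 control libraries, with genes grouped by role and colors limited to the range from -3 to 3. The 3 SB216763 libraries are above the controls for nearly every gene, with Wipi1 below, and the ECs are above the controls for some genes (Ctsh, Ctsl, Scarb2) and below for others (Ctsk, Cd63, Asah1).

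The same counts were also expressed as the share of the library that these genes took. The summed counts of the 48 members made up 0.691%, 0.712%, and 0.676% of the control libraries, 2.05%, 2.06%, and 1.92% of the SB216763 libraries, and 0.862%, 0.859%, and 0.865% of the EC libraries. The means were 0.693% ± 0.0185 (SD, n = 3) in controls, 2.01% ± 0.0781 in treated cells, and 0.862% ± 0.00335 in ECs. These shares are of all counts in a library, without the TMM factors that scale the CPM and fold changes. The factors were 0.92 to 0.93 in controls and 1.05 to 1.08 in treated cells. With them, the treated share would exceed the control share by less. As computed, the treated share was 2.90 times the control share. The 5 members with the most counts (Psap, Lamp1, Ctsb, Sqstm1, and Lamp2) carried part of this. Without them the shares were 0.409% in controls and 1.02% in treated cells, a ratio of 2.48.

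**Figure D2:**
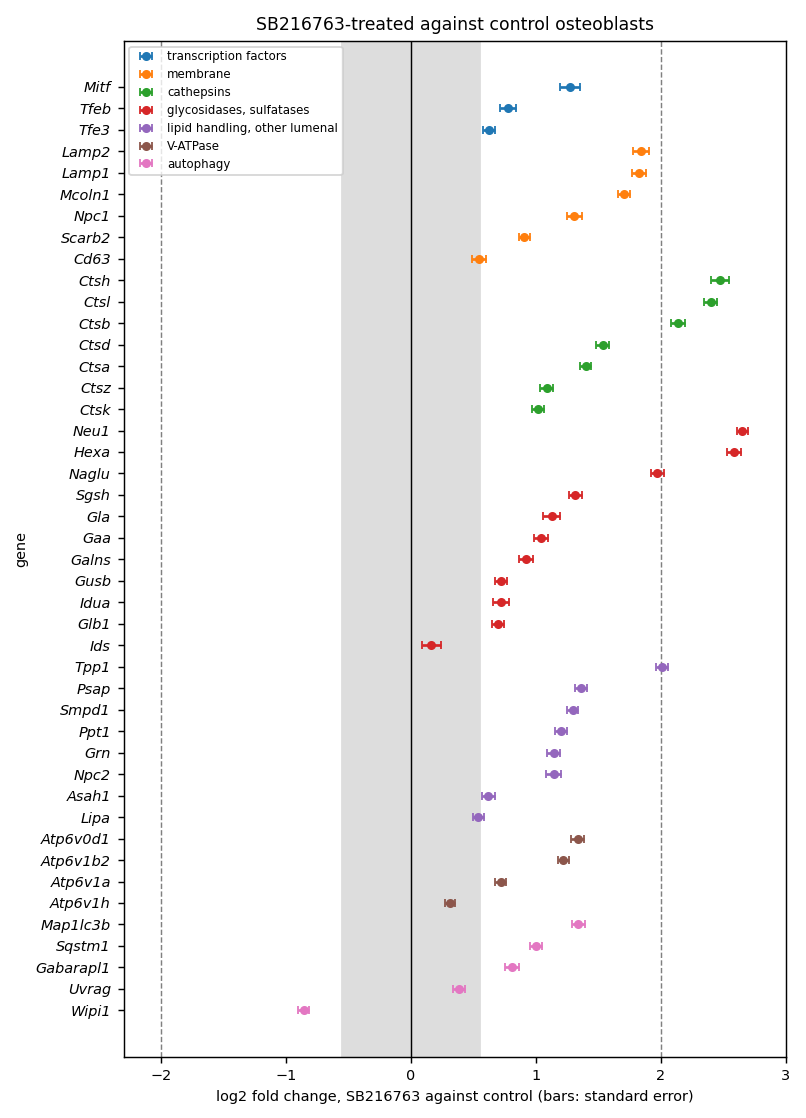
Log2 fold change between SB216763-treated and control osteoblasts for 44 of the tested members (Atp6v0d2 is not drawn because its control counts are at the floor), grouped and colored by role, with bars for the standard error. The gray band spans the middle 50% of all genes tested, from -0.56 to 0.55, the dashed lines mark -2 and 2, and all members except Wipi1 lie above 0.

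The 3 MiT/TFE transcription factors were all higher after treatment, each by less than the strict threshold. Tfeb (ENSMUSG00000023990.18, chr17:47737030-47792419) was at 10.4, 11.1 and 10.5 CPM in the control libraries, 19.2, 18.6 and 17.02 CPM in the SB216763 libraries, and 14.8, 15.8 and 15.7 CPM in the ECs. The treated libraries were all above the EC libraries, which were all above the controls. Between treated and control cells Tfeb rose 1.71-fold (log2 fold change 0.78 ± 0.0643 SE, FDR = 1.86e-08). Its log2 fold change from ECs to treated cells was 0.25 ± 0.0629 (SE), with an FDR of 0.00196 that passed 0.01 only while SB216763 library 1 and EC library 1 were both in the fit (FDR of 0.0112 and 0.0175 without either).

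Tfe3 (ENSMUSG00000000134.17, chrX:7762560-7775202), which of the 3 listed factors had the highest level per kilobase of exon, was at 62.5, 64.1 and 61.8 CPM in controls, 99.3, 99.4 and 92.6 CPM in treated cells, and 61.1, 54.9 and 59.7 CPM in ECs. Control and EC levels were close for this gene and were not called different (FDR = 0.071), although each control library was above each EC library. The treated libraries were above both (treated against control, log2 fold change 0.63 ± 0.0491 SE, FDR = 9.55e-09). Mitf (ENSMUSG00000035158.15, chr6:97807052-98021349), the melanocyte and osteoclast member of the family, had the lowest level of the 3 but the largest relative increase. It went from 3.88, 3.50 and 3.68 CPM in controls to 8.97, 9.10 and 8.74 CPM in treated cells (log2 fold change 1.28 ± 0.0797 SE, FDR = 5.77e-10), with 4.76, 4.78 and 5.10 CPM in ECs. Per kilobase of exon, Tfe3 was at 6.78 CPM in controls and 10.5 CPM in treated cells, Tfeb at 1.88 and 3.22 CPM, and Mitf at 0.595 and 1.44 CPM. The order of the 3 factors was therefore the same in both osteoblast groups.

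**Figure D3:**
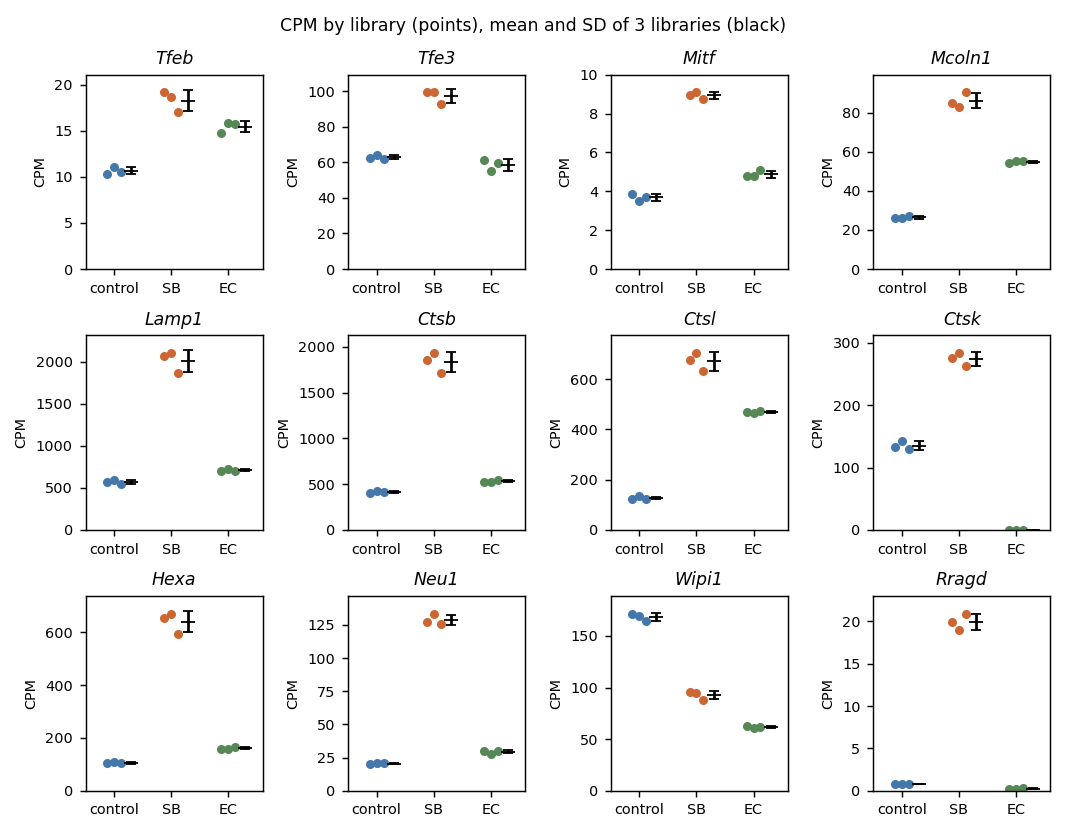
CPM in each library (points) with the mean and SD of 3 libraries (black) for 11 members and the regulator Rragd, in control osteoblasts, SB216763-treated osteoblasts (SB), and ECs, each panel with its own linear axis from 0. Treated libraries are the highest in every panel except Wipi1, where controls are the highest, and ECs are near 0 for Ctsk.

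Sequence letters of the promoters were compared with the E-box and with 2 longer motifs of the same family. The windows were RefSeq promoter sequences on GRCm38.p6 that run from 250 bases before to 50 bases after a gene's start, and 40 of the 48 members had at least 1 window. Ctsb, Ctsh, Galns, Asah1, Npc1, Atp6v0d2, Atp6v1b2, and Atp6v1h had none in the table. Both strands were searched. The E-box CACGTG was found in 13 of the 40 members (32.5%), in 8.09% of all genes with a window, and in 11.4% of the tested genes with a window. The longer palindrome TCACGTGA, which contains the E-box, was found in 6 of 40 members (15.0%) against 1.12% of all genes and 2.10% of tested genes. The related TCACATGA, which does not contain it, was found in 5 of 40 (12.5%) against 1.15% and 0.900%. Counted over windows of 1 fixed length, the shares were 27.7% of 47 member windows and 7.15% of all windows for CACGTG, 12.8% and 0.974% for TCACGTGA, and 10.6% and 0.986% for TCACATGA. A match describes letters and is not evidence of binding.

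The stretches below lie before the RefSeq start of each gene and are shown because they hold the longest palindrome, or, for Lamp1, the most copies of the E-box. In GENCODE release 21, those of Lamp1 and Atp6v1a cover no annotated exon. The stretches of Ctsa, Ctsd, and Mcoln1 lie within a noncoding exon stretch (5′ UTR) of another transcript of the gene, and that of Gla within an exon of Hnrnph2 on the other strand, and they are cut to 30 bases around a match. They are written 5′ to 3′ on the strand of the gene, from RefSeq on GRCm38.p6, and capitals mark every match to CACGTG, TCACGTGA or TCACATGA on either strand.
Ctsa, chr2:164833743-164833772 (+): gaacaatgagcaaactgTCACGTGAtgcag
Ctsd, chr7:142387908-142387937 (−): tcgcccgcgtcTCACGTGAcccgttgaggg
Mcoln1, chr8:3500462-3500491 (+): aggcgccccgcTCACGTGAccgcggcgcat
Lamp1, chr8:13159076-13159160 (+): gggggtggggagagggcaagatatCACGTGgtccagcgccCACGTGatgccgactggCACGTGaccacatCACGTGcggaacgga
Atp6v1a, chr16:44139360-44139415 (−): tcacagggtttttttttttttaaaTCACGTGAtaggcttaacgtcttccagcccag
Gla, chrX:134601209-134601238 (−): attgaTCACGTGAgcatctacgTCATGTGA

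Lamp1 had 4 E-boxes within 85 bases, and Gla had 2 copies of TCACGTGA with 1 TCACATGA on the other strand between them. Atp6v0d1 also held TCACGTGA, in a match that spans the start site. Tpp1 held 2 copies of TCACATGA, both after its start, and Ctsl held 1 E-box, 236 bases before its start. The 12 tested members with an E-box in the window had a median log2 fold change of 1.37 (from 0.70 to 2.40), and the 25 tested members with a window and no E-box had a median of 1.02 (from -0.86 to 2.65). The first range lay within the second. Tpp1, Ppt1, and Grn, which held TCACATGA, were among those without an E-box. For TCACGTGA the medians were 1.37 with it (6 members) and 1.09 without (31 members). For TCACATGA they were 1.17 with it (4 members) and 1.09 without (33 members).

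The lysosomal membrane proteins were all 6 higher in treated cells, with a median log2 fold change of 1.51. Lamp1 (ENSMUSG00000031447.7, chr8:13159161-13175338) and Lamp2 (ENSMUSG00000016534.15, chrX:38401357-38456454) encode the most abundant glycoproteins of the lysosomal membrane. Lamp1 was at 564, 589.9 and 551 CPM in controls, 2070.0, 2100.0 and 1860.0 CPM in treated cells, and 704, 718 and 697 CPM in ECs. Lamp2 was at 449.7, 454 and 411, 1674, 1588 and 1453, and 341, 352 and 313 CPM in the same order. Both rose by about the same factor, Lamp1 with log2 fold change 1.82 ± 0.0577 SE, FDR = 1.11e-13 and Lamp2 with log2 fold change 1.84 ± 0.0658 SE, FDR = 5.23e-13. Compared with ECs, treated cells were 4.69-fold higher for Lamp2 and 2.85-fold higher for Lamp1.

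Mcoln1 (ENSMUSG00000004567.16, chr8:3500457-3515232) encodes the lysosomal calcium channel TRPML1, whose calcium release activates the phosphatase that frees TFEB. It was at 26.2, 25.9 and 27.1 CPM in controls, 84.9, 82.8 and 90.4 CPM in treated cells (log2 fold change 1.71 ± 0.0460 SE, FDR = 1.53e-14), and 54.3, 55.1 and 55.4 CPM in ECs, so that the 3 groups did not overlap. Scarb2 (ENSMUSG00000029426.8, chr5:92441314-92506833), the receptor that carries glucocerebrosidase to lysosomes, was higher in ECs (268, 276 and 265 CPM) than in treated cells (186, 183 and 180.3 CPM), and lowest in controls (97.8, 99.8 and 95.1 CPM). It rose 1.88-fold with treatment (FDR = 1.3e-11) and stayed 1.47-fold below the ECs (FDR = 2.94e-09). Cd63, a tetraspanin of late endosomes and exosomes, was lowest in ECs and highest in treated cells, with 745, 795 and 731 CPM in controls, 1131, 1172 and 1010.0 CPM in treated cells, and 284, 286 and 284 CPM in ECs. The increase of Cd63 with treatment was the smallest of the membrane group, 1.46-fold (FDR = 4.02e-07). Npc1, which exports cholesterol from lysosomes, rose 2.48-fold (FDR = 9.62e-12).

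Cathepsins, the lysosomal proteases, held 3 of the 7 members past the strict threshold. All 7 tested cathepsins rose at least 2-fold in the main fit, with a median log2 fold change of 1.54. Ctsk was at that edge, with log2 fold changes from 0.98 to 1.05 when each library was left out in turn. The cysteine protease Ctsl (ENSMUSG00000021477.8, chr13:64359337-64370890) was at 124, 133 and 124 CPM in controls, 678, 704 and 631 CPM in treated cells, and 468, 465 and 473 CPM in ECs. Treated libraries were above the ECs, and the ECs far above the controls, with a rise of 5.27-fold in treated over control cells (log2 fold change 2.40 ± 0.0539 SE, FDR = 1.71e-15). Its exons overlap an antisense gene (Gm47123) and a processed pseudogene (Gm49230) in the annotation, so its counts are uncertain in this respect. Ctsb (ENSMUSG00000021939.7, chr14:63122462-63145923) encodes another abundant cysteine protease, and its values were 408, 430.4 and 412 CPM in controls, 1854, 1933 and 1716 CPM in treated cells, and 524, 527 and 545 CPM in ECs (treated against control, log2 fold change 2.14 ± 0.0561 SE, FDR = 1.11e-14). Ctsh (ENSMUSG00000032359.14, chr9:90054152-90076089), an aminopeptidase, was low in controls at 9.61, 11.3 and 9.06 CPM and reached 56.1, 60.1 and 52.1 CPM in treated cells (log2 fold change 2.48 ± 0.0725 SE, FDR = 4.25e-14). The treated level lay just below the EC level of 63.9, 67.03 and 65.4 CPM, and the difference from the ECs of -0.22 on the log2 scale (FDR = 0.00419) was not called with scaling by library size only or without any 1 of 4 libraries (SB216763 1 and 3, EC 2 and 3), at FDR from 0.0157 to 0.0406.

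The aspartic protease Ctsd (ENSMUSG00000007891.16, chr7:142375911-142388038) was at 204, 219.7 and 203 CPM in controls, 605, 634 and 580.3 CPM in treated cells, and 462, 451 and 477 CPM in ECs (treated against control, log2 fold change 1.54 ± 0.0520 SE, FDR = 2.65e-13). Ctsa (ENSMUSG00000017760.15, chr2:164832873-164841032), the carboxypeptidase that protects Neu1 and beta-galactosidase in a shared complex, was at 142, 141 and 137, 372, 378 and 355, and 194, 189.5 and 202 CPM in the same order of groups (treated against control, log2 fold change 1.40 ± 0.0454 SE, FDR = 1.55e-13). For both genes the 3 groups did not overlap and treated cells were the highest. In the annotation, Ctsd shares exons with Gm49369 on the same strand, and Ctsa shares exons with Neurl2 and Pltp on the other strand.

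Ctsk (ENSMUSG00000028111.4, chr3:95499256-95509362), the collagenase of osteoclasts, set the osteoblasts apart from the ECs. It was at 133, 143 and 129 CPM in controls, 276, 284 and 263 CPM in treated cells, and 0.321, 0.457 and 0.417 CPM in ECs. The treated level was 2.03-fold the control level (log2 fold change 1.02 ± 0.0501 SE, FDR = 2.85e-11), and the control level was 342-fold the EC level (FDR = 1.28e-19). Ctsk rose while the 6 osteoblast markers were lower. Of 16 markers of macrophages and osteoclasts, 13 were too low to test. Their sum was 29.1 to 31.0 CPM in controls, 9.78 to 11.8 CPM in treated cells, and 13.4 to 13.7 CPM in ECs, and most of it was Lyz2. Without Lyz2 the sums were 3.50 to 4.34, 3.15 to 3.78, and 2.80 to 3.62 CPM. The osteoclast marker Calcr had 0 counts in all 9 libraries, and Acp5, which encodes the osteoclast phosphatase TRAP, had at most 2 counts in a library. Without Lyz2 the sums of treated and control libraries overlapped, and the part of such cells in the Ctsk values was not tested.

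Among the glycosidases and sulfatases, 10 of 11 rose, with a median log2 fold change of 1.04. The largest change of any well-expressed member was that of Neu1 (ENSMUSG00000007038.5, chr17:34931253-34935953), the lysosomal sialidase. It was at 20.04, 20.7 and 20.6 CPM in controls, 127, 133 and 126 CPM in treated cells, and 29.6, 28.1 and 30.2 CPM in ECs. Treated cells were 6.29-fold above controls (log2 fold change 2.65 ± 0.0471 SE, FDR = 1.47e-16) and 4.39-fold above ECs. Hexa (ENSMUSG00000025232.8, chr9:59539540-59565109), the alpha subunit of beta-hexosaminidase that is mutated in Tay-Sachs disease, went from 106, 109.8 and 103 CPM in controls to 654, 669.5 and 594 CPM in treated cells (log2 fold change 2.59 ± 0.0546 SE, FDR = 8.1e-16), with 159, 158 and 166 CPM in ECs. Naglu (ENSMUSG00000001751.9, chr11:101070012-101077672), a heparan sulfate glucosaminidase, was just inside 4-fold, from 42.2, 42.3 and 38.8 CPM to 165, 167 and 152 CPM (log2 fold change 1.97 ± 0.0517 SE, FDR = 1.09e-14). Its EC level of 39.1, 37.6 and 39.8 CPM was close to the control level.

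The other enzymes of this group changed less. Sgsh, the heparan sulfatase, rose 2.49-fold (FDR = 1.04e-12), Gaa, the acid alpha-glucosidase that degrades glycogen, rose 2.06-fold (FDR = 4.95e-11), and the sulfatase Galns rose 1.90-fold (FDR = 3.01e-10). Gla (ENSMUSG00000031266.6, chrX:134588149-134601125), the alpha-galactosidase A that is deficient in Fabry disease and whose promoter letters are shown above, was at 13.03, 13.9 and 11.6 CPM in controls, 29.6, 28.5 and 26.8 CPM in treated cells (log2 fold change 1.13 ± 0.0677 SE, FDR = 3.6e-10), and 20.7, 18.8 and 19.6 CPM in ECs. Gusb, the beta-glucuronidase, Idua, the alpha-iduronidase, and Glb1, the beta-galactosidase, rose 1.65-, 1.65-, and 1.62-fold, respectively. Ids, the iduronate sulfatase, was at 109, 91.8 and 85.9 CPM in controls and 115, 107 and 100.4 CPM in treated cells, so the groups overlapped (log2 fold change 0.16 ± 0.0737 SE, FDR = 0.0577). Control library 1 was the highest control for Ids, and without it the log2 fold change was 0.27 (FDR = 0.00103). The enzyme group thus ran from no call to more than 6-fold.

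All 8 genes for lipid handling and other lumenal work were higher after treatment, with a median log2 fold change of 1.17. Psap (ENSMUSG00000004207.14, chr10:60277627-60302597), the precursor of the saposins that present sphingolipids to their hydrolases, had the highest level per kilobase of exon of all members in all 3 groups, at 387 CPM in controls, 994 CPM in treated cells, and 359.6 CPM in ECs. Its CPM was 1080.0, 1064 and 1041 in controls, 2739, 2822 and 2624 in treated cells, and 979, 978 and 1004 in ECs (treated against control, log2 fold change 1.36 ± 0.0511 SE, FDR = 9.87e-13). The treated libraries were far above both other groups. Controls and ECs were not called different (FDR = 0.0636), although each control library was above each EC library. Tpp1 (ENSMUSG00000030894.5, chr7:105744811-105752235), a tripeptidyl peptidase that is mutated in a childhood form of neuronal ceroid lipofuscinosis, was at 88.95, 80.9 and 86.3 CPM in controls, 346, 353 and 333 CPM in treated cells, and 216, 216 and 223 CPM in ECs (treated against control, log2 fold change 2.01 ± 0.0484 SE, FDR = 3.85e-15). Tpp1 at 2.01 and Naglu at 1.97 were the members on either side of the log2 fold change of 2.

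Smpd1, the acid sphingomyelinase, Ppt1, a palmitoyl thioesterase, Npc2, the lumenal cholesterol carrier, and Grn, the progranulin precursor, rose 2.45-, 2.30-, 2.21-, and 2.21-fold (FDR of 5.39e-13, 2.25e-12, 4.95e-11, and 5e-12), respectively. Asah1 (ENSMUSG00000031591.14, chr8:41340197-41374773), the acid ceramidase, was at 249, 252 and 234 CPM in controls, 387, 389.7 and 354 CPM in treated cells (log2 fold change 0.62 ± 0.0527 SE, FDR = 2.67e-08), and 142, 146 and 133 CPM in ECs. Lipa, the acid lipase, rose 1.46-fold (FDR = 1.07e-08), the smallest increase of the group, and was the highest in ECs.

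Each of the 5 V-ATPase subunits was higher in treated cells, with a median log2 fold change of 1.22. Atp6v0d1, the widely used d subunit of the membrane sector, rose 2.52-fold (FDR = 2.51e-12), and Atp6v1b2, a nucleotide-binding subunit of the cytosolic sector, rose 2.33-fold (FDR = 5.09e-13). Atp6v1a (ENSMUSG00000052459.13, chr16:44085402-44139705), the catalytic subunit, was at 162, 157 and 148 CPM in controls, 260.3, 262 and 246 CPM in treated cells (log2 fold change 0.72 ± 0.0463 SE, FDR = 8.6e-10), and 212, 217 and 209 CPM in ECs. The regulatory subunit Atp6v1h rose 1.24-fold (FDR = 5.79e-06). Atp6v0d2 (ENSMUSG00000028238.6, chr4:19876841-19922605), the d subunit of osteoclasts and macrophages, was barely detected. Control libraries gave 0, 2, and 1 counts and EC libraries 2, 0, and 2, all below the floor of 3 counts, against 39 counts summed over the treated libraries. The ratio of treated to control counts, scaled to depth, was 20.1 (95% exact interval 6.38 to 101, counting error only), and the FDR was 2.84e-05. At 0.354 CPM in treated cells against 284 CPM for Atp6v0d1, the osteoclast isoform remained a trace transcript.

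The autophagy genes were the most divided role, with 4 higher and 1 lower among 5 and a median log2 fold change of 0.81. Map1lc3b (ENSMUSG00000031812.16, chr8:121590361-121598760), which encodes the LC3B protein that is joined to autophagosome membranes, was at 136, 145 and 129.7 CPM in controls, 348, 367 and 325 CPM in treated cells (log2 fold change 1.34 ± 0.0536 SE, FDR = 2.17e-12), and 172, 173 and 171 CPM in ECs. The cargo receptor Sqstm1 (p62) rose 2.002-fold (FDR = 3.15e-11), the LC3 relative Gabarapl1 1.75-fold (FDR = 2.08e-09), and Uvrag, a partner of the Vps34 kinase complex, 1.30-fold (FDR = 3.91e-06). Wipi1 (ENSMUSG00000041895.15, chr11:109573331-109611967), a phosphoinositide-binding protein of early autophagosomes, went the other way. It was at 171, 169 and 164 CPM in controls, 95.3, 94.9 and 88.3 CPM in treated cells, and 63.1, 60.9 and 62.2 CPM in ECs, with no overlap between groups, and it fell by 0.86 on the log2 scale (SE 0.0442, FDR = 5.23e-11). Across the alternatives run, its log2 fold change stayed between -0.88 and -0.65.

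**Figure D4:**
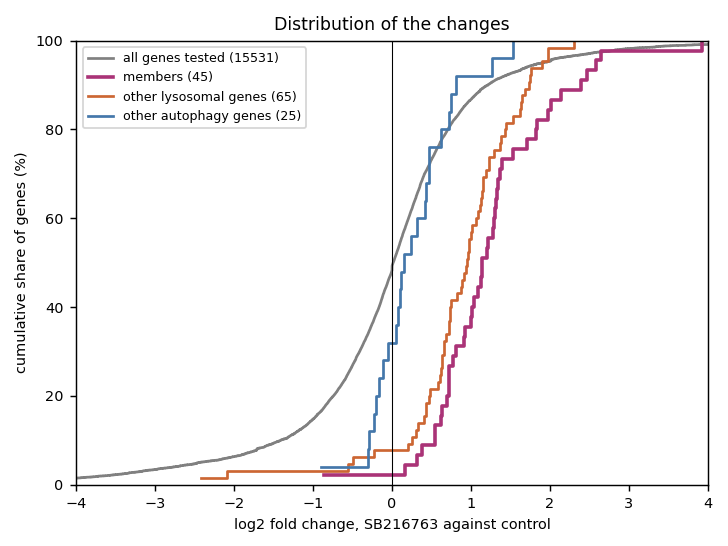
Cumulative share of genes (y axis, percent) by log2 fold change between SB216763-treated and control osteoblasts (x axis, drawn from -4 to 4) for all 15531 genes tested, the 45 members, the other lysosomal genes (V-ATPase, hydrolases, and membrane proteins outside the members), and 25 other autophagy genes. The lysosomal curves lie to the right of the curve of all genes, with medians near 1, and the curve of the other autophagy genes starts below 0 and has a median of 0.15.

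Genes of the same pathway outside the members were counted in 6 wider lists, of which 125 of 131 genes were tested. Of these, 93 were higher in treated than in control osteoblasts, 12 were lower, and 20 were not called, with a median log2 fold change of 0.68. The background for this count and for each list below is 32.9% of all genes tested called higher and 32.0% called lower. The other V-ATPase subunits were higher for 14 of 15 tested, with a median of 1.01. Atp6v0b, a proteolipid of the membrane ring, rose 3.39-fold (FDR = 3e-14), and Tcirg1, the a3 subunit of osteoclasts, rose 3.13-fold (FDR = 4.25e-13). The a4 subunit of kidney, Atp6v0a4, was lower, at 0.229, 0.235 and 0.191 CPM against 1.12, 1.24 and 1.18 CPM in controls (log2 fold change -2.42 ± 0.255 SE, FDR = 3.58e-07). Apart from this isoform, all tested subunits of the list were called higher.

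Other lysosomal hydrolases and activators were higher for 25 of 28 tested and lower for 1, with a median log2 fold change of 0.82. Dpp7, a dipeptidyl peptidase, rose 3.92-fold (FDR = 1.14e-14), and the carboxypeptidase Prcp fell by 0.56 on the log2 scale (FDR = 1.28e-08). Other lysosomal membrane proteins were higher for 19 of 22 and lower for 2, with a median of 0.95. The cystine exporter Ctns rose 4.94-fold (FDR = 8.89e-15) and Laptm4b 3.72-fold (FDR = 1.34e-14), while Tpcn2, a lysosomal cation channel, fell by 0.49 on the log2 scale (FDR = 2.47e-05). Cln3, a lysosomal membrane protein lost in juvenile Batten disease, was at 0.725, 0.819 and 1.04 CPM in controls and 0.0573, 0.104 and 0.408 CPM in treated cells (FDR = 0.000125), against 20.2, 18.9 and 17.9 CPM in ECs. The Cln3 value of SB216763 library 1 came from fewer than 3 counts. The log2 fold change of Cln3 ran from -3.29 to -1.70 when each library was left out in turn, so its size is uncertain. Of the genes for mannose 6-phosphate tagging and sorting, 7 of 10 were higher and 3 were not called, with a median of 0.56. Gnptg, a subunit of the tagging enzyme, rose 4.18-fold (FDR = 1.24e-14), and the sorting receptor Sort1 rose 2.32-fold (FDR = 1.52e-10).

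The remaining autophagy genes were spread to both sides, with 12 of 25 higher, 6 lower, and 7 not called, and a median log2 fold change of 0.15. Atg12, a conjugation factor, rose 2.40-fold (FDR = 3.08e-12) and Gabarap 1.75-fold (FDR = 2.07e-09), whereas the receptor Optn fell by 0.90 (FDR = 4.29e-11) and Map1lc3a fell by 0.31 on the log2 scale (FDR = 0.00103, 0.185 with scaling by library size only). The share called higher was 48% here, 95.6% among the members, and 32.9% among all genes tested.

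Among 25 tested regulators of the MiT/TFE factors, 16 were higher, 2 were lower, and 7 were not called, with a median log2 fold change of 0.59. Rragd, a Rag GTPase that recruits mTORC1 and the MiT/TFE factors to lysosomes and is itself a known target of these factors, had the largest change. It was at 0.851, 0.837 and 0.799 CPM in controls, 19.9, 19.03 and 20.9 CPM in treated cells, and 0.229, 0.244 and 0.324 CPM in ECs, a 23.8-fold increase (log2 fold change 4.57 ± 0.0957 SE, FDR = 7.51e-16) with no overlap. Flcn (folliculin), the GTPase-activating protein for RagC and RagD, rose 3.58-fold (FDR = 1.65e-13). The calcineurin subunit Ppp3cb fell by 0.55 (FDR = 5.92e-07) and Rheb, the GTPase that activates mTORC1, fell by 0.31 on the log2 scale (FDR = 1.85e-05, 0.0365 with scaling by library size only). The transcripts of the drug's own targets, listed among the regulators, were not called, with a log2 fold change of 0.03 for Gsk3a (FDR = 0.613) and -0.16 for Gsk3b (FDR = 0.0182).

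The comparison of control osteoblasts with ECs placed the lysosomal genes mostly lower in the osteoblasts. Of the 45 members, 8 were higher in controls than in ECs, 29 were lower, and 8 were not called, where 37.9% of all genes tested were higher and 39.0% lower. The strict threshold was passed by Ctsk upward and by Ctsh downward, against 9.87% and 13.5% of all genes tested. The median log2 fold change was -0.39, and that of all genes tested was -0.01. After Ctsk, the members highest in controls relative to ECs were Wipi1, Cd63, and Asah1 (log2 fold changes of 1.44, 1.41, and 0.80). Those lowest after Ctsh were Ctsl, Scarb2, and Tpp1 (-1.88, -1.46, and -1.35).

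Treated osteoblasts, in contrast, were mostly above the ECs. Of the 45 members, 37 were higher in treated cells than in ECs, 5 were lower (Scarb2, Gusb, Lipa, Ctsh, and Atp6v1h), and 3 were not called (Ids, Idua, and Uvrag), where 38.3% of all genes tested were higher and 40.3% lower. The strict threshold was passed upward by 5 of the 45 members (Lamp2, Neu1, Naglu, Ctsk, and Atp6v0d2), a share near the 10.3% of all genes tested. It was passed downward by 0, against 15.0%. Of these 5, Atp6v0d2 had entered the test through its treated libraries alone. The median log2 fold change was 0.80, and that of all genes tested was -0.02. This comparison and the previous one share the EC libraries, and the values of each are given side by side. Hexa was at a log2 fold change of -0.60 in controls and 1.99 in treated cells against ECs. Lamp1 was at -0.31 and 1.51, and Mcoln1 at -1.06 and 0.65. For the enzymes that began far below the ECs the treated value was closer to the EC level, with -2.70 and -0.22 for Ctsh and -1.13 and 0.16 for Smpd1. The call of Smpd1 between treated cells and ECs, and that of Grn, was lost without SB216763 library 1 or 2 or EC library 1 or 2, where the log2 fold changes were 0.13 to 0.16. Of the 8 members called above the ECs in controls, all but Wipi1 lay farther from the EC level in treated cells. These were Asah1, Glb1, Gaa, Ctsz, Lamp2, Ctsk, and Cd63, as in Cd63 with 1.41 and 1.96. Wipi1 lay closer, with 1.44 and 0.58.

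**Figure D5:**
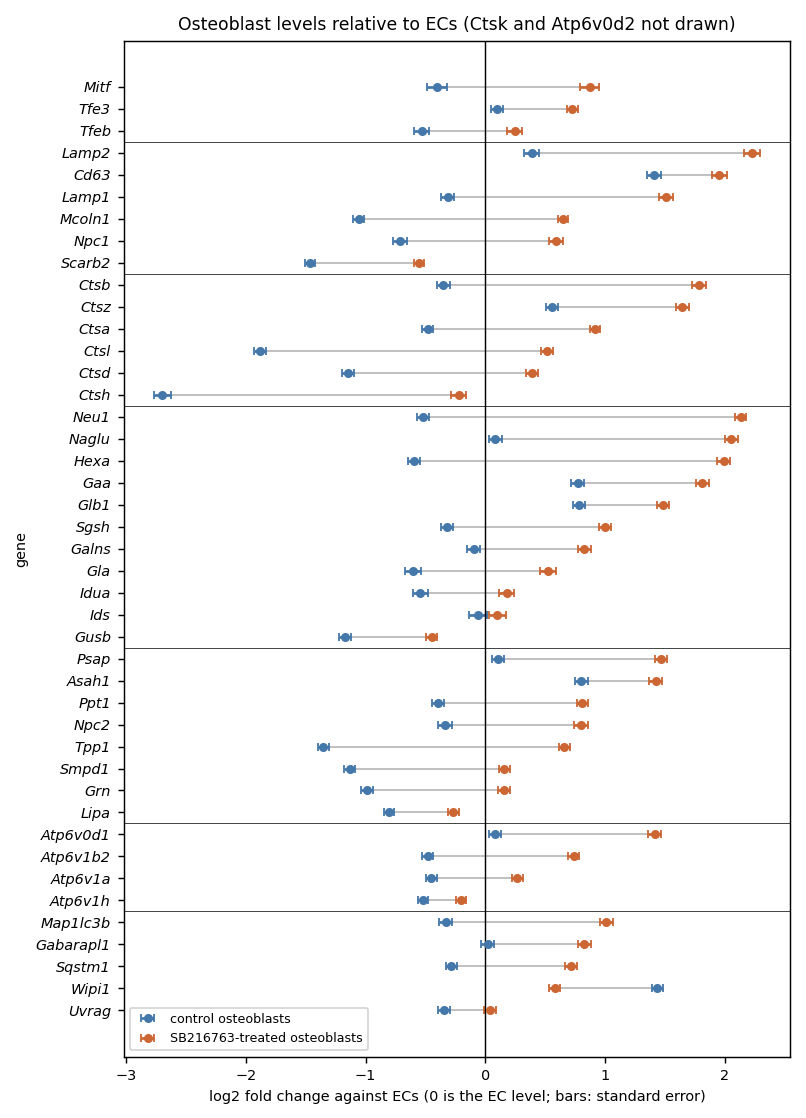
Log2 fold change of control osteoblasts (blue) and SB216763-treated osteoblasts (orange) against ECs for 43 of the tested members (Ctsk and Atp6v0d2 are not drawn), with 0 at the EC level and bars for the standard error, grouped by role. All treated points except that of Wipi1 lie to the right of the control points, with Scarb2, Gusb, Lipa, Ctsh, and Atp6v1h below the EC level after treatment, and both point sets rest on the same EC libraries.

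Over the 3 group means, treated osteoblasts were the highest for 39 of the 45 members (86.7%), ECs for 5, and controls for 1 (Wipi1). Over all genes tested, treated cells were the highest for 32.5%, ECs for 39.1%, and controls for 28.4%. Controls were the lowest for 32 members (71.1%) and ECs for 13 (28.9%), and treated cells were the lowest for 0. Over all genes tested, controls were the lowest for 30.4%, ECs for 37.9%, and treated cells for 31.7%. Libraries of treated and control cells overlapped for Ids alone among the tested members, and libraries of treated cells and ECs overlapped for Ids and Uvrag. The share of all genes tested without such overlap was not counted, so these counts have no background beside them and are not read as a trait of the members. Neighboring group means that did not differ by the test were those of controls and ECs for Tfe3, Naglu, Galns, Ids, Psap, Atp6v0d1, Atp6v0d2, and Gabarapl1, and those of treated cells and ECs for Ids, Idua, and Uvrag.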

How the data were processed

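RNA-Seq counts from 9 libraries were used. Gene counts were made by the authors with STAR, which also aligned the reads (version 2.5.3a and GRCm38 in the submitters' processing notes), and were deposited raw, with no normalization. The annotation release and the strand setting are not given in the sources used here, so counts of overlapping and antisense genes are uncertain. Besides Ctsl, Ctsd, and Ctsa, this holds for other members whose exons overlap genes on the other strand, among them Ctsb, Hexa, Lamp1, Npc1, and Sqstm1. The labels give the same treatment text for every sample, and groups were taken from titles and treatment entries.

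Identifiers were matched to symbols (50376 of 50686 genes) and to GENCODE mouse release 21 for coordinates and exon lengths (50462). The tests used edgeR 4.0.16 in R 4.3.3, with filterByExpr, TMM normalization, and 1 quasi-likelihood fit to all 9 libraries. Genes passed at a Benjamini-Hochberg FDR under 0.01 over all 15531 genes, and the study's cutoff added a log2 fold change of 2 or more in either direction. Log2 fold changes used a prior count of 0.125. The biological coefficient of variation was 0.0554. Replicates differed by more than sampling noise (chi-square per gene from 2.85 to 104). Intervals and floors cover counting error only.

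The members, the wider lists, and the tests were chosen with earlier results of these data known. Named with values in each library were the 3 factors, the members past the cutoff, the 8 next largest changes in each direction, the 4 largest in each direction between controls and ECs, and the members with a printed sequence. In each wider list the 2 largest changes in each direction were named, except for 1 result that is not reported here. Gsk3a and Gsk3b were named after their values were seen, and the other members are given by fold changes. The counts and medians of the members and the fold changes of the members and of the genes named from the wider lists were recomputed with DESeq2 1.42.0, with limma-voom (limma 3.58.1), with upper-quartile or library-size scaling in place of TMM, with other filters and cutoffs, in fits of the 2 compared groups alone, with the replicate number as a block, and without each library in turn. Same-numbered libraries did not deviate together (correlations from -0.0392 to 0.123), so they were not treated as pairs. Counts over the wider lists were recomputed by library size only and the summed share only without the 5 highest members, both added after seeing the data. The other values were not recomputed.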

Additional observations from a re-analysis of the deposited data

How the results depend on the processing

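No called value changed direction in any alternative run. With scaling by library size only, the median log2 fold change of all genes tested moved by 0.20 for treated against control cells and by -0.13 for controls against ECs. The medians of the members under that scaling were 1.35 (1.14 with TMM) for treated against control cells, -0.52 (-0.39) for controls against ECs, and 0.88 (0.80) for treated cells against ECs, where it was 0.84 with no filter. The median of the members minus that of all genes was 1.13 under it for treated against control cells. Controls against ECs then had 2 members past the strict cutoff downward in place of 1, and the wider lists had 106 higher and 6 lower in place of 93 and 12. The shares of all genes called were not counted under that scaling. With a log2 fold change of at least 1 as the cutoff, 29 members passed upward between treated and control cells, 3 upward and 8 downward between controls and ECs, and 16 upward between treated cells and ECs. Of all 15531 genes tested, 1726 passed this cutoff upward between treated and control cells. Between controls and ECs 2716 passed upward and 3295 downward, and between treated cells and ECs 2978 passed upward. The ratio of shares was 2.48 without the 5 members with the most counts. Leaving out each library in turn gave 6 to 8 members past the cutoff and 43 to 44 called higher in treated against control cells, with medians from 1.11 to 1.20. The medians ranged from -0.38 to -0.33 for controls against ECs, and from 0.76 to 0.85 for treated cells against ECs. With the replicate number as a block, 43 members were called higher and 1 lower in treated against control cells, 7 passed the cutoff, and the median was 1.14, and the block changed no call of a member in the other comparisons. Among the named genes, the calls that depended on a setting were those of Ids, Map1lc3a, and Rheb between treated and control cells, Galns between controls and ECs, and Tfeb, Ctsh, Idua, Smpd1, Grn, and Atp6v1h between treated cells and ECs. The causes were not tested.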

Other observations

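Some genes of the same pathway were near 0 in the osteoblast line with and without SB216763 and present in the ECs (chosen after their values were seen). Tfec, the fourth MiT/TFE gene, was at 0 to 0.115 CPM in the 6 osteoblast libraries and 53.7 to 56.3 CPM in the ECs. Rragb, a Rag GTPase, was at 0 to 0.0347 CPM in osteoblasts and 8.22 to 8.83 CPM in ECs. Gm2a, the ganglioside activator protein, was at 0.0287 to 0.139 CPM in osteoblasts and 16.5 to 17.6 CPM in ECs. Gm2a was not called between treated and control cells (log2 fold change -0.22 ± 0.59 SE, FDR = 0.779 by edgeR's quasi-likelihood test).

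Cd68, a lysosomal membrane protein used as a macrophage marker, was at 0.662, 0.310, and 0.625 CPM in controls, 1.58, 1.72, and 1.58 CPM in treated cells, and 45.5, 46.8, and 47.5 CPM in ECs. It was higher in treated than in control cells (log2 fold change 1.63 ± 0.197 SE, FDR = 1.66e-06), at a level far below that of the ECs.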
